A study of Mus musculus with 2 samples.

Results

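The 50 genes described here build and run the machinery that copies DNA and supply the nucleotides it uses. They were chosen by symbol, by known role and not by level, though with earlier results of these data known. All 50 were matched by gene identifier among the 42462 named genes of the series. They were grouped into 6 steps: origin licensing, helicase, polymerases, clamp (with its loader and the single-strand binding protein RPA), ligation (with flap removal and topoisomerase I) and nucleotide supply. The tissue was the facial prominence of B6NCrl mouse embryos at embryonic day 10.5, described by the labels as healthy, with male and female embryos pooled and with no genetic change or treatment named. Sequencing covered total RNA above 200 nt in 2 biological replicates, a pool of 69 embryos in replicate 1 and a pool of 51 in replicate 2, each from 10 ng of RNA with spike-in RNA added. The labels gave 1 group, so the values describe levels in this tissue and how far the pools differed, and no condition was compared.

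Before S phase, the origin recognition complex (ORC) marks origins and, with CDC6 and CDT1, loads the ring of MCM2 to MCM7 onto DNA. Kinases and the GINS complex then turn the ring into an active helicase, polymerases alpha, epsilon and delta copy the strands, and the PCNA clamp, its loader RFC, FEN1 and DNA ligase I complete them. Ribonucleotide reductase makes deoxynucleotides from ribonucleotides. In embryos these genes serve fast dividing cells such as the mesenchyme and ectoderm of the early face. Because the samples were bulk tissue, more cells in S phase and more RNA per cell cannot be told apart in any level below.

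Depth was alike in the libraries. The sum of expected counts over genes was 40059176 for replicate 1 and 39531700 for replicate 2. The 50 genes took 351180 of these in replicate 1, or 0.877% (exact 95% binomial interval 0.874 to 0.880), and 360299 in replicate 2, or 0.911% (0.908 to 0.914). These intervals cover counting error only. Levels are given in TPM, the abundance of transcripts corrected for their length and for depth, so that genes can be compared, with the SD over n = 2 pools. Of the markers of facial mesenchyme, 10 of 10 were detected, with Msx1 at 292 and Prrx1 at 107 TPM. Markers of ectoderm (5 of 6, all but Krt5 in replicate 2), neurons (6 of 6), red blood cells (6 of 6), endothelium (5 of 5) and macrophages (4 of 4) were also detected, and so was 1 of the 3 liver and yolk sac markers. Of these, Ttr had 4.72 TPM in replicate 1 and 5.08 TPM in replicate 2, Afp had 0.11 and 1.09 TPM, and Alb was at 0 in both.

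Detection, meaning 1 TPM or more in each library, was met by all 50 genes, against 58.2% of the 21474 named protein coding genes. Levels of at least 100 TPM in both libraries were reached by 28 of the 50 genes (56.0%), against 7.63% of the protein coding genes. The median over the 50 genes was 115 TPM, against 20.1 TPM over the 12494 detected protein coding genes, and 49 of the 50 lay above that second median. The exception was Rrm2b. In the order of detected protein coding genes, the 50 ran from percentile 19.7 (Rrm2b) to percentile 98.3 (Rrm2), with a median of 88.7, and 24 were in the top 10%, which began at 128 TPM. By step, the median level was lowest for origin licensing (59.4 TPM, 9 genes) and polymerases (83.4 TPM, 9 genes). It was 131 TPM for the 13 helicase genes, 133 TPM for the 3 ligation genes, 165 TPM for the 9 clamp genes and 199 TPM for the 7 nucleotide supply genes.

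**Figure D1:**
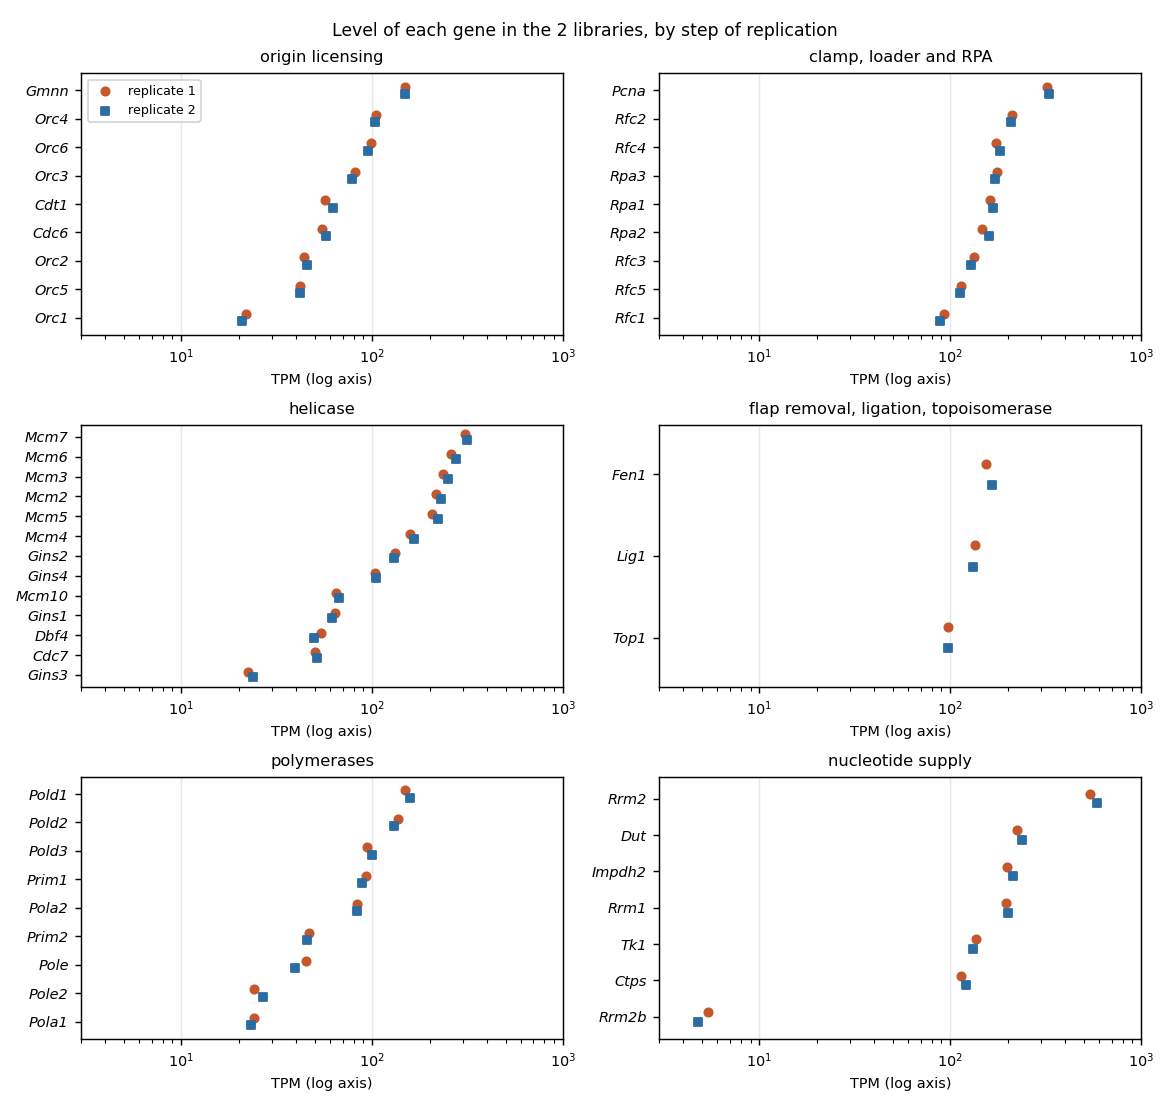
TPM of each of the 50 genes on a log axis, in 6 panels by step, with circles for replicate 1 and squares for replicate 2. The libraries lie close together for each gene, while genes within a step spread from Orc1 (21.3 TPM) to Gmnn (149 TPM) in licensing and from Rrm2b (5.09 TPM) to Rrm2 (564 TPM) in nucleotide supply.

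Among the licensing genes, the inhibitor was the most abundant. Gmnn encodes geminin, which binds CDT1 and blocks repeated loading of the MCM ring (ENSMUSG00000006715, chromosome 13, 24751845 to 24761923, minus strand, GRCm38). It had 149 TPM in each library. Cdt1 itself (chromosome 8, 122568015 to 122573554, plus strand) had 56.7 TPM in replicate 1 and 62.1 TPM in replicate 2, and Cdc6, its partner in loading, had 54.8 and 57.6 TPM. Both libraries thus held geminin RNA above that of either loading factor. The ratio of Gmnn to Cdt1 was 2.51 (95% interval 2.24 to 2.80) and that of Gmnn to Cdc6 was 2.65 (2.41 to 2.90). Cdt1 and Cdc6 did not differ beyond their spread, with a log2 difference of 0.08 (-0.09 to 0.25). With coding transcripts alone they did, at 0.17 (0.01 to 0.34). These and later intervals come from the spread between replicates pooled over the 200 genes nearest in level, since 2 pools give no usable SD of their own, and an exact permutation test of 2 against 2 values cannot go below p = 0.33.

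The 6 ORC subunits, which act as a complex, were not at one level. Orc1, the largest subunit (ENSMUSG00000028587, chromosome 4, 108579423 to 108614833, plus strand), was the lowest, with 21.8 TPM in replicate 1 and 20.9 TPM in replicate 2. Orc5 had 42.2 and 41.7 TPM and Orc2 had 43.9 and 45.6 TPM. Orc3 had 81.6 and 78.5 TPM, Orc6 had 98.6 and 94.8 TPM, and Orc4 had 105 and 104 TPM. The order was the same in both libraries, and each of the other subunits exceeded Orc1 by more than the pooled spread, by 1.96-fold (Orc5; 1.72 to 2.24) to 4.86-fold (Orc4; 4.34 to 5.45). The place of Orc4 rests on transcripts not annotated as coding. Its leading transcript (ENSMUST00000154784) is a processed transcript with 23.4 ± 0.453% of the gene's TPM, and coding transcripts held 27.7% of its TPM and 51.1% of its counts. Counting coding transcripts alone, Orc4 had 28.8 ± 1.10 TPM and was 1.53-fold above Orc1 (1.33 to 1.77), Orc6 led with 96.7 ± 2.68 TPM and Orc1 stayed lowest with 18.7 ± 0.311 TPM. Orc2 shares 1150 exonic bases with Nif3l1 on the opposite strand (65.2 TPM), and the strand setting of the counting was not given in the sources.

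The MCM2 to MCM7 genes, which form the helicase ring, were more even than the subunits of ORC and among the most abundant of the 50. Mcm7 (ENSMUSG00000029730, chromosome 5, 138164583 to 138172422, minus strand) had 309 TPM in replicate 1 and 316 TPM in replicate 2. Mcm6 had 260.1 and 275 TPM, Mcm3 had 235 and 248 TPM and Mcm2 had 217 and 229.9 TPM. Mcm5 had 205 and 221 TPM, and Mcm4 (chromosome 16, 15623897 to 15637400, minus strand) had 158 and 167 TPM. All 6 kept this order in both libraries, and the highest was 1.92 times the lowest. With coding transcripts alone Mcm3 had 177 ± 5.76 TPM, below Mcm2 and Mcm5, and the highest was 1.83 times the lowest. Each was below Mcm7 by more than the pooled spread, with log2 differences from -0.22 for Mcm6 (-0.32 to -0.13) to -0.94 for Mcm4 (-1.06 to -0.83). Mcm10, which is no part of the ring and helps to activate it, was lower, at 64.7 and 67.5 TPM, a log2 difference from Mcm7 of -2.24 (-2.35 to -2.13).

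The factors that activate the helicase were less even. The kinase Cdc7 had 50.4 TPM in replicate 1 and 51.7 TPM in replicate 2, and Dbf4, its regulatory subunit, had 53.9 and 49.4 TPM. This pair did not differ beyond its spread (log2 difference of Dbf4 over Cdc7 0.02, -0.13 to 0.17). Of the GINS subunits, Gins3 (chromosome 8, 95633453 to 95645060, plus strand) was the lowest of the 13 helicase genes, at 22.3 and 23.8 TPM. Gins1 had 64.2 and 61.9 TPM, Gins4 had 104 TPM in each library and Gins2 had 131 and 129.9 TPM. Over Gins3, the ratio was 2.73 for Gins1 (2.42 to 3.07), 4.50 for Gins4 (4.03 to 5.03) and 5.64 for Gins2 (5.05 to 6.30). The last value does not hold for coding transcripts. Gins2-204, a retained-intron transcript of 511 nt, carried 72.3 ± 0.962% of the TPM of Gins2, and coding transcripts held 17.5% of its TPM and 62.9% of its counts. Their level was 22.9 ± 0.403 TPM, and the log2 difference from Gins3 was then -0.01 (-0.20 to 0.18). Gins2 also shares 2758 exonic bases with Gse1 on the opposite strand (7.13 TPM).

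**Figure D2:**
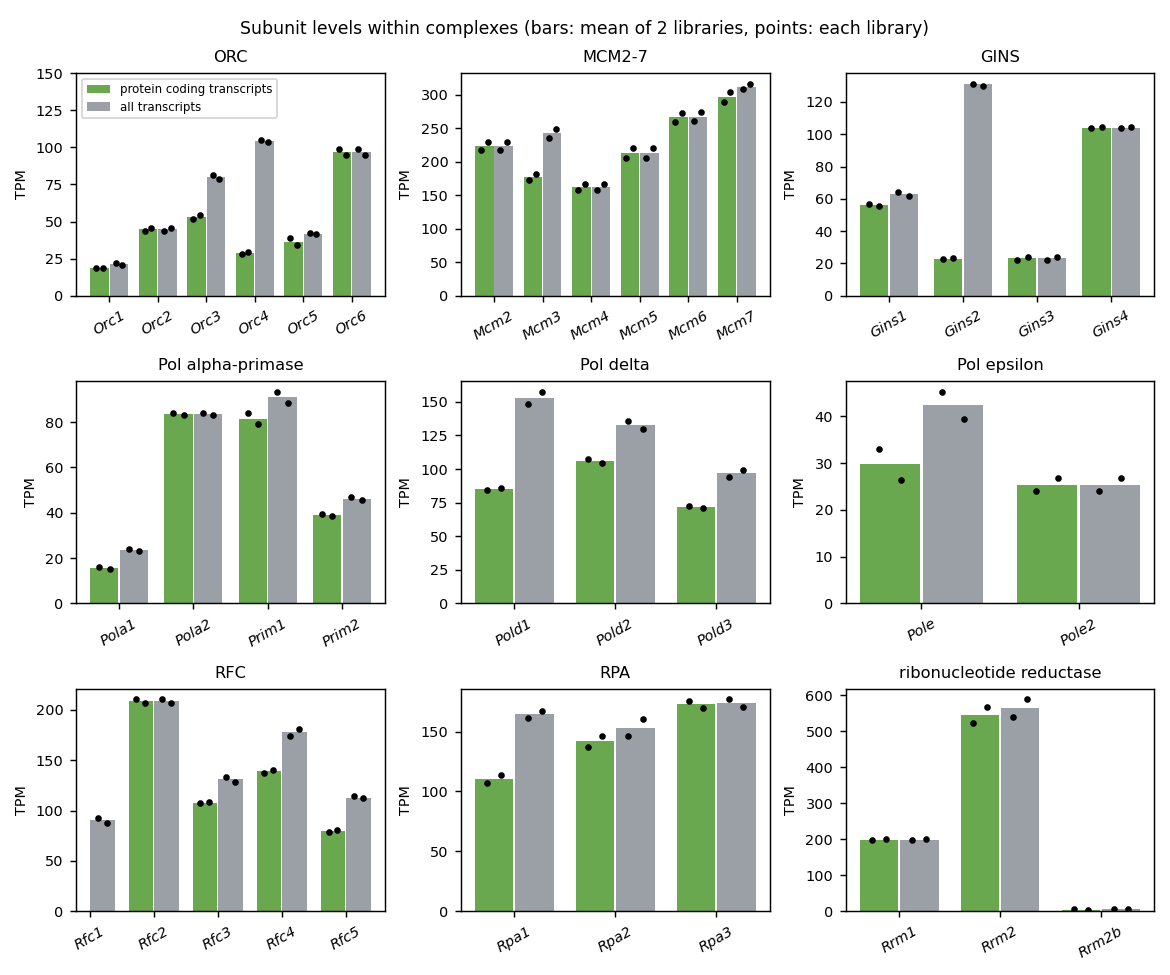
Level of each subunit in 9 complexes in TPM on a linear axis from 0, for coding transcripts (green) and all transcripts (grey), with bars for the mean and points for each of the 2 libraries. Gins2 and Orc4 fall to 22.9 and 28.8 TPM when coding transcripts alone are counted, and Rfc1 has no green bar because 90.7% of its TPM was in transcripts not in the annotation used for types.

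Catalytic and accessory subunits of the polymerases differed in level. The catalytic subunit was the lower one in polymerase alpha. In polymerase delta it was the highest in TPM of all transcripts, but not with coding transcripts alone or per kilobase of the longest transcript. Pola1, the catalytic subunit of polymerase alpha (ENSMUSG00000006678, chromosome X, 93304767 to 93632155, minus strand), had 24.0 TPM in replicate 1 and 23.3 TPM in replicate 2. Its accessory subunit Pola2 had 83.8 and 83.0 TPM. The primase subunits that lay down RNA primers, Prim1 (catalytic) and Prim2, had 93.4 and 88.5 TPM and 46.9 and 45.7 TPM. Pola2 exceeded Pola1 by 3.52-fold (3.15 to 3.93) and Prim1 exceeded Prim2 by 1.96-fold (1.76 to 2.19). Coding transcripts gave the same directions, with Pola2 over Pola1 at 5.30-fold (4.66 to 6.02).

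For polymerase delta, which copies the lagging strand, the catalytic subunit Pold1 (chromosome 7, 44532746 to 44548849, minus strand) was highest, with 149 TPM in replicate 1 and 158 TPM in replicate 2. Pold2 had 136 and 129.8 TPM and Pold3 had 94.4 and 99.4 TPM. Pold1 over Pold2 gave a log2 difference of 0.20 (0.08 to 0.33), but with coding transcripts alone Pold1 had 85.1 ± 0.721 TPM and Pold2 106 ± 2.04 TPM, a log2 difference of -0.32 (-0.47 to -0.17). Without replicate 2 the difference of all transcripts was 0.13, within its interval. Per kilobase of the longest transcript, Pold2 was the highest, at 1.46 times Pold3. The accessory subunit Pold4, which is outside the 50, was the low one of this complex, at 11.4 and 8.98 TPM.

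Polymerase epsilon, which copies the leading strand, was lower. Pole, its catalytic subunit (chromosome 5, 110286306 to 110337474, plus strand), had 45.3 TPM in replicate 1 and 39.3 TPM in replicate 2, and Pole2 had 24.1 and 26.8 TPM. The SD of the TPM of Pole, 9.93% of its mean, was the largest of the 50. Its expected counts were closer, at 4370 in replicate 1 and 4196 in replicate 2. The effective length by which its TPM is corrected was 3642 and 4048 bases. Pold1 over Pole was 3.62-fold (3.24 to 4.04), or 2.88-fold (2.57 to 3.22) with coding transcripts alone. Pole over Pole2 was 1.66-fold (1.43 to 1.93). Per kilobase of the longest transcript this order turned, with Pole2 at 1.06 times Pole. With coding transcripts alone, the libraries disagreed on the direction of Pole over Pole2, with Pole at 33.1 and 26.3 TPM and Pole2, which has 1 transcript, as above. The histone-fold subunits Pole3 (99.4 ± 1.45 TPM) and Pole4 (78.5 ± 2.58 TPM), outside the 50, were above both.

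Pcna, the sliding clamp that holds polymerases on DNA (ENSMUSG00000027342, chromosome 2, 132249162 to 132253314, minus strand), was second among the 50, with 322 TPM in replicate 1 and 328 TPM in replicate 2. Its processed pseudogene Pcna-ps2 had 2.91 TPM, 0.895% of the level of Pcna, and Pcna-ps1 was at 0. Of the clamp loader, Rfc2 had 211 and 207 TPM, Rfc4 had 174 and 181 TPM, Rfc3 had 133 and 128 TPM, and Rfc5 had 114 and 113 TPM. The large subunit Rfc1 was lowest in this step, with 92.5 and 88.0 TPM. Rfc2 over Rfc1 was 2.31-fold (2.08 to 2.57) and Pcna over Rfc1 was 3.60-fold (3.29 to 3.94). The level of Rfc1 depends on its transcripts: 41.2 ± 2.18% of its TPM was assigned to a transcript of 485 nt that the GENCODE M21 annotation does not hold, and per kilobase of the longest transcript Rfc2 over Rfc1 became 4.64-fold.

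RPA, which coats single-stranded DNA as a complex of 3 proteins, had the most even levels of the 9 complexes when all transcripts were counted. Rpa1 had 162 TPM in replicate 1 and 167 TPM in replicate 2, Rpa2 had 146 and 160.1 TPM, and Rpa3 had 177 and 171 TPM. The highest was 1.13 times the lowest. Rpa3 and Rpa1 did not differ beyond their spread (log2 difference 0.08, -0.06 to 0.22), nor did Rpa1 and Rpa2 (0.10, -0.02 to 0.23), while Rpa3 exceeded Rpa2 by 0.18 (0.04 to 0.32), or by 0.09 (within its interval) without replicate 1. This evenness was less with other lengths: coding transcripts gave Rpa1 110 ± 4.44, Rpa2 142 ± 6.63 and Rpa3 173 ± 4.29 TPM, a spread of 1.57-fold with every pair beyond its interval, and per kilobase of the longest transcript the spread was 2.11-fold.

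In the ligation step, Fen1, the nuclease that cuts the flaps of Okazaki fragments (chromosome 19, 10199132 to 10204169, minus strand), had 154 TPM in replicate 1 and 166 TPM in replicate 2. Lig1, which seals the nicks (chromosome 7, 13277283 to 13311433, plus strand), had 135 and 132 TPM, and Fen1 over Lig1 was 1.20-fold (1.10 to 1.31). The log2 difference was 0.26 (0.13 to 0.39), or 0.57 (0.43 to 0.70) with coding transcripts alone. Without replicate 2 it was 0.19 (0.01 to 0.38) for all transcripts. Top1, which relaxes supercoils ahead of the fork, had 96.9 and 98.0 TPM. Topoisomerase II alpha, Top2a, outside the 50, was 2.87-fold above Top1 (2.63 to 3.14), at 283 and 277 TPM. This is a log2 difference of 1.52 (1.39 to 1.65), which was 1.27 (1.12 to 1.43) with coding transcripts alone. Fen1 shares 1909 exonic bases with the antisense gene Gm10143 (11.0 TPM) and 130 with Tmem258 (325 TPM), both on the opposite strand.

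Ribonucleotide reductase held both extremes. Rrm2, the small subunit made in S phase (ENSMUSG00000020649, chromosome 12, 24708241 to 24714146, plus strand), had 540.1 TPM in replicate 1 and 588 TPM in replicate 2, the highest of the 50. Rrm1, the large catalytic subunit (chromosome 7, 102441695 to 102469771, plus strand), had 197 and 202 TPM. Rrm2b, the alternative small subunit known as a p53 target that serves cells outside S phase (chromosome 15, 37923952 to 37961318, minus strand), had 5.39 and 4.79 TPM from 401 and 380 counts, the lowest of the 50. Rrm2 exceeded Rrm1 by 2.83-fold (2.59 to 3.10) and Rrm2b by 109-fold (83.0 to 143), on the log2(TPM + 0.1) scale used for every pair. The authors' deposited bounds on Rrm2b, whose confidence level is not stated, were 5.38 to 8.02 TPM in replicate 1 and 4.64 to 7.17 TPM in replicate 2, around posterior means of 6.64 and 5.88 TPM. With their posterior mean TPM, Rrm2 exceeded Rrm2b by 86.9-fold (71.2 to 106) on the same scale.

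The other nucleotide supply genes lay at 100 TPM or more. Dut, the dUTPase that keeps uracil out of DNA, had 224 TPM in replicate 1 and 238 TPM in replicate 2, and its transcript Dut-202 carried 88.6 ± 0.0212% of its TPM. Impdh2, which commits IMP to guanine nucleotides, had 199.6 and 214 TPM, and was 5.16-fold above its paralog Impdh1 (4.62 to 5.75). Ctps, which makes CTP from UTP, had 114 and 121 TPM, 1.91-fold above Ctps2 (1.72 to 2.12). The cytosolic thymidine kinase Tk1 had 137 and 131 TPM, 9.47-fold above mitochondrial Tk2 (8.09 to 11.1), or 5.13-fold (4.46 to 5.90) when coding transcripts alone were counted. Thymidylate synthase, Tyms, which makes dTMP anew, was 2.10-fold above Tk1 (1.93 to 2.27), and Tk1 was 1.69-fold above deoxycytidine kinase, Dck (1.55 to 1.85). Neither of these last differences held for coding transcripts alone. Those of Tyms held 10.8% of its TPM and 26.2% of its counts, at 30.4 ± 0.643 TPM, and Tyms over Tk1 turned to a log2 difference of -1.25 (-1.42 to -1.09). Coding transcripts of Tk1 had 72.5 ± 4.64 TPM, its retained-intron transcript Tk1-203 holding 32.8 ± 1.48% of the gene, and Tk1 over Dck was then -0.13 (-0.27 to 0.02), within its interval. The pseudogene Impdh2-ps had 6.42 TPM, 3.11% of the level of Impdh2.

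In all, 44 pairs of genes were compared, and 40 differed by more than the pooled spread while 4 did not (Cdt1 with Cdc6, Dbf4 with Cdc7, and Rpa1 with Rpa2 and with Rpa3). The share among pairs of other genes was not computed, so this count is not a trait of replication genes. Standard errors were small, from 0.0509 to 0.201 on the log2 scale. The pairs were chosen after the levels of the 50 genes were seen, so their intervals describe the size of the differences in these libraries.

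The share of coding transcripts bears on several of the levels above. Of the 50 genes, 41 had at least 2 annotated transcripts. All 41 had the same leading transcript in both libraries, against 93.8% of the 7753 genes of at least 5 TPM with 2 or more transcripts. The leading share ran from 23.4% (Orc4) to 99.4% (Rpa3), with a median of 74.1%. It was at least 90% in 7 genes and under 50% in 7, among them Fen1, whose 3 main coding transcripts held 40.6%, 30.1% and 27.7%. The coding share of Rfc1 is not known, since 90.7% of its TPM was in transcripts of no known type in M21. In the other 40 genes, coding transcripts held a median of 86.3% of the TPM, against 91.5% over 7444 protein coding genes typed to the same extent. By counts, which do not give short transcripts extra weight, the medians were 92.6% and 96.5%. A coding share of at least 90% of TPM was found in 15 of the 40 genes, against 53.5% of those protein coding genes. It was below 70% in 7, against 22.0% of the protein coding genes: Gins2, Orc4, Tk1 (54.2%), Pold1 (55.6%), Pola1 (66.3%), Orc3 (66.5%) and Rpa1 (67.0%). When coding transcripts alone were counted, the median level was 85.1 TPM over the 49 genes other than Rfc1.

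**Figure D3:**
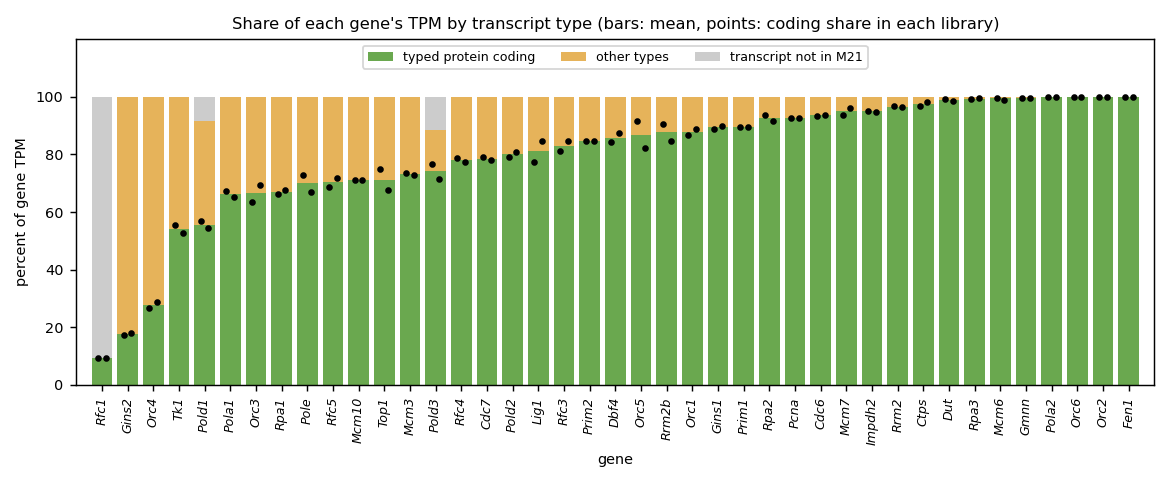
Percent of each gene's TPM in transcripts typed protein coding (green), of other types (yellow) and not in the GENCODE M21 annotation (grey), as the mean of 2 libraries with points for the coding share in each, for the 41 genes with at least 2 transcripts. Gins2 (17.5%) and Orc4 (27.7%) stand low in both libraries, and Rfc1 is nearly all grey.

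The pools agreed closely for these genes. The SD was under 5% of the mean in 41 of the 50, against 53.9% of detected protein coding genes. Its median was 2.90% of the mean, against 4.48% over those genes. After scaling counts by the trimmed mean of M-values (TMM), none of the 50 genes was at least 25% higher in replicate 1, against 7.20% of 12943 protein coding genes whose counts averaged 50 or more. Likewise none was at least 25% higher in replicate 2, against 4.50%. Log2 ratios of replicate 1 over replicate 2 ran from -0.18 (Pole2) to 0.09 (Dbf4). Their median absolute value was 0.063, against 0.089 over all tested genes. The 50 genes had a median of 115 TPM, against 20.1 TPM over detected protein coding genes. The part of this higher level in these contrasts was not tested.

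Within this narrow range, 34 of the 50 genes were higher in replicate 2 with TMM and with DESeq2 size factors and 28 with library size alone, but all 50 were higher in replicate 1 when libraries were scaled by their spike-in RNA. Of all tested genes, 51.3% were higher in replicate 2 with TMM and 91.7% were higher in replicate 1 with spike-in scaling. The 6 MCM2 to MCM7 genes were all higher in replicate 2 with TMM, with log2 ratios from -0.08 to -0.13, and all higher in replicate 1 with spike-in scaling. Spike-in RNA took 3.46% of counts in replicate 1 and 3.94% in replicate 2, and scaling by it moved the median of all genes by 0.21 on the log2 scale. Relative to the median of all genes, the median of the 50 was at -0.048, a difference that a scaling common to all genes leaves as it is. By step with TMM, the median log2 ratio was -0.10 for nucleotide supply, -0.09 for helicase, -0.06 for clamp, -0.01 for licensing and for ligation, and 0.01 for polymerases. Macrophage markers summed to 32.4 TPM in replicate 1 and 24.3 TPM in replicate 2. Red blood cell markers summed to 10751 and 9726 TPM, of which Hbb-y had 5835 and 4962 TPM. Hbb-bh1, Alas2 and Klf1 went the other way, and the median log2 ratio of that list was 0.03. Of the facial mesenchyme markers, Alx1 had 78.8 and 47.8 TPM, while the median log2 ratio of its list was 0.01. The part of these markers in the ratios of the 50 genes was not tested.

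**Figure D4:**
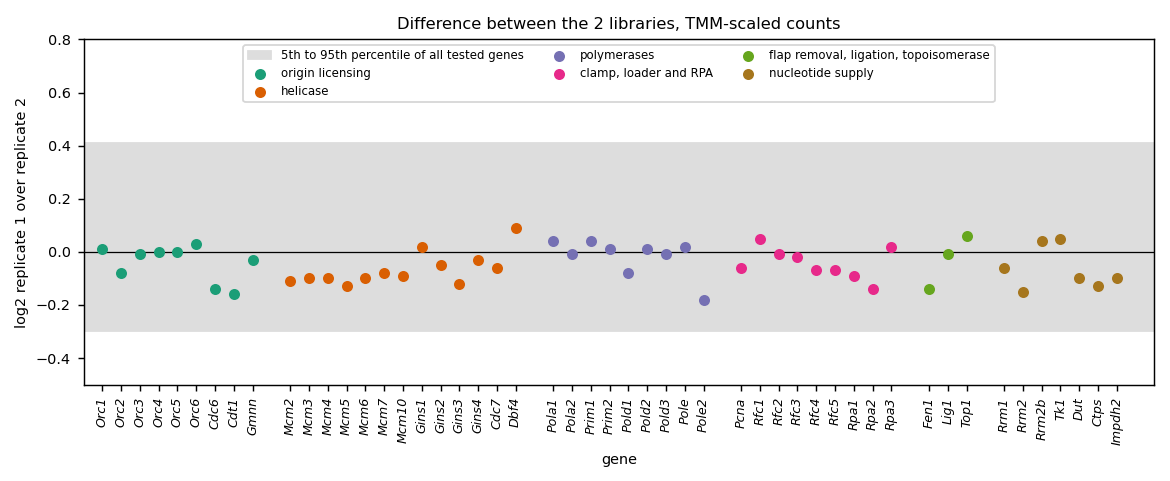
Log2 ratio of replicate 1 over replicate 2 from TMM-scaled counts for each of the 50 genes, coloured by step, with the 5th to 95th percentile of all tested genes (-0.30 to 0.41) shaded. All 50 points lie inside the band, from -0.18 to 0.09, and spike-in scaling would move every point up by 0.21.

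Many replication genes are known targets of E2F transcription factors, which RB family proteins hold in check until cells enter S phase. RefSeq promoter windows on GRCm38.p6, from 250 bases before to 50 bases after a transcription start, were held for 41 of the 50 genes. They were searched on both strands for the letters TTTGGCGC, TTTCCCGC, TTTGGCGG and TTTCCCGG. A match was found in 17 of the 41 genes (41.5%), against 4.71% of 17492 protein coding genes. By window, the shares were 33.3% and 4.15%. Mcm3 and Mcm6 held 2 matches in a window, as did 0.212% of protein coding genes. No match among the 50 genes overlapped another. By step, 4 of 8 licensing genes had a match, 5 of 9 helicase genes, 5 of 7 polymerase genes, 2 of 8 clamp genes, 1 of 3 ligation genes and 0 of 6 nucleotide supply genes. The windows of the 50 genes were richer in G and C, with a median of 62.3% against 56.3%, and the part of base composition in the shares was not tested.

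Stretches of 30 bases are printed around the matches that lie wholly before the start. They come from the licensing, helicase, polymerase and RPA genes that had such a match. Each runs 5′ to 3′ on the gene's own strand, with the match in capitals; a match that reads GCGGGAAA, GCGCCAAA or CCGCCAAA is the reverse complement of a searched run. Starts are those of RefSeq, and the stretches of Cdc6, Mcm7 and Gins3 lie inside the GENCODE gene, whose first start is farther upstream.
Orc3, minus strand, chr4:34614965-34614994: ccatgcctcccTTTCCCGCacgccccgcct
Cdc6, plus strand, chr11:98908002-98908031: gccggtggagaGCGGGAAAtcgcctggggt
Mcm5, plus strand, chr8:75109349-75109378: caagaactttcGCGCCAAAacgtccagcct
Mcm6, minus strand, chr1:128359797-128359826: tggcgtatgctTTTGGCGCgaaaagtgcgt
Mcm6, minus strand, chr1:128359734-128359763: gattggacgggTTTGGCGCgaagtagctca
Mcm7, minus strand, chr5:138172030-138172059: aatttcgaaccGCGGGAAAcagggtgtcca
Gins3, plus strand, chr8:95633507-95633536: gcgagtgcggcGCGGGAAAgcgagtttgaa
Pola1, minus strand, chrX:93632275-93632304: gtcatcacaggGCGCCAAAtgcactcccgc
Rpa1, minus strand, chr11:75348582-75348611: attctgtctgtCCGCCAAAggactgggcgg

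The matches began from 217 bases before the start (Rpa1) to 39 bases after it (Pold1). Those of Mcm6 began 110 and 47 bases before it, those of Orc3 and Gins3 41 bases before it, and those of Cdc6 and Pola1 138 bases before it. Genes with a match had levels from 23.1 TPM (Gins3) to 312 TPM (Mcm7). Orc1, lower than Gins3, and Rrm2 and Pcna, higher than Mcm7, had none of these letters in their windows. The letters CCAAT were present in 23 of the 41 genes (56.1%), against 42.3% of protein coding genes. Gmnn, Mcm4, Gins1, Gins2, Gins4, Prim2, Pole, Rfc2 and Rrm2b were not searched.

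**Figure D5:**
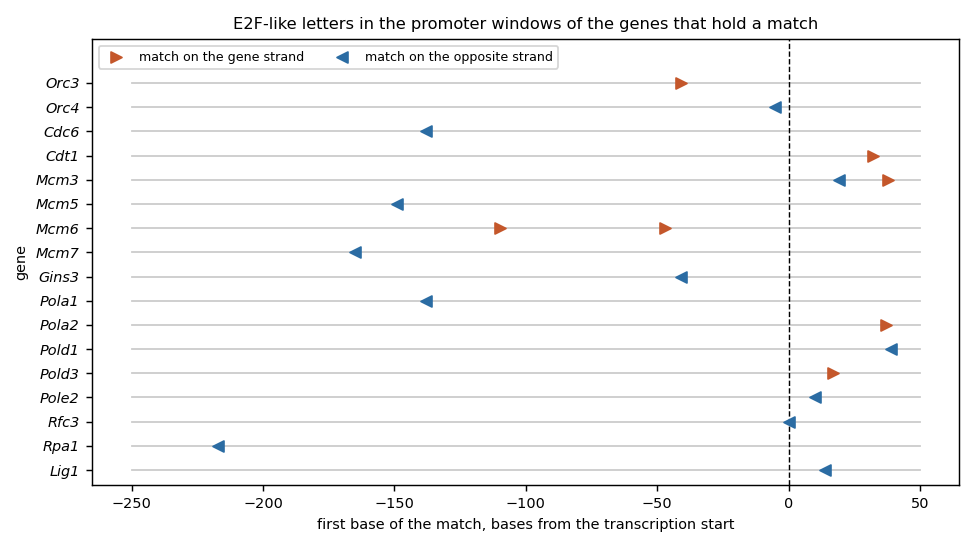
Position of the first base of each E2F-like match relative to the transcription start (dashed line) in the promoter windows of the 17 genes with a match, with grey lines for the searched window and arrowheads for the strand. Matches lie between 217 bases before and 39 bases after the start, and Mcm3 and Mcm6 have 2 each.

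Several of the genes share their start region with a neighbour. A protein coding gene on the opposite strand began within 1000 bases of 8 of the 50 genes (16.0%), against 10.2% of detected protein coding genes. Orc3 and Rars2 start 13 bases apart and had 80.0 and 64.2 TPM. Orc1 and Prpf38a start 87 bases apart, yet Orc1 had 21.3 ± 0.672 TPM and Prpf38a 101 ± 2.14 TPM. Mcm4, at 162 TPM, and Prkdc, at 7.33 TPM, start 466 bases apart, and Rpa3, at 174 TPM, and Umad1, at 20.5 TPM, start 115 bases apart. In all, 15 of the 50 genes share exonic bases with another gene, against 32.1% of detected protein coding genes, and 14 share them with one on the opposite strand, against 27.6%. Both shares are near those of the other genes.

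The rest of the pathway was present at lower typical levels. Of 26 further genes of initiation and the fork, 26 were detected, with a median of 63.5 TPM. Top2a (280 TPM), the fork protection factor Tipin (192 TPM) and the RNase H2 subunit Rnaseh2c (141 TPM) were the highest, and Pold4 (10.2 TPM) and the initiation factor Ticrr (9.29 TPM) the lowest. Of 12 further genes of deoxynucleotide and thymidylate supply, 12 were detected, with a median of 83.0 TPM. Nucleoside diphosphate kinase Nme1 (291 TPM), Tyms (281 TPM, mostly from transcripts not typed as coding) and thymidylate kinase Dtymk (240 TPM) led, and Samhd1, which breaks deoxynucleotides down (22.8 TPM), and Tk2 (14.1 TPM) were lowest.

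Of 16 further genes of purine and pyrimidine synthesis, 16 were detected, with a median of 60.6 TPM. The purine enzymes Paics (406 TPM), Adsl (145 TPM) and Gart (112 TPM) led, while the synthetase Prps2 (19.0 TPM) and the muscle isozyme Adssl1 (3.44 TPM) were lowest. All 13 genes of the E2F and RB families were detected, with a median of 21.8 TPM. The E2F partner Tfdp1 (160 TPM), E2f4 (106 TPM) and E2f5 (55.9 TPM) were highest, and Rbl2 (7.88 TPM) and E2f2 (5.19 TPM) lowest. E2f1 had 21.3 TPM in replicate 1 and 21.7 TPM in replicate 2, and Rb1 had 20.0 and 23.7 TPM. The median of the 50 genes, 115 TPM, was above that of each of these 4 lists. With coding transcripts alone, the median over the 49 genes other than Rfc1 was 85.1 TPM. Medians of coding transcripts were not computed for the lists.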

How the data were processed

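Expected counts per gene and per transcript were deposited by the authors for each library without normalization. The authors also deposited TPM, scaled over all features of a file, spike-in RNA included, as maximum likelihood and posterior mean estimates. Transcript shares within genes are percent values from the authors. Per the accompanying notes deposited with the files, reads were placed on mm10 and quantified against GENCODE M4, separately for each library. The aligner, the quantifier and the strand setting were not given in these sources.

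Genes were matched by identifier without version to GENCODE M21 (GRCm38), which gave symbols, coordinates and transcript types. The 50 genes, the other lists and the tests were chosen with earlier results of these data known, and the pairs, the CCAAT search and the alternative restricted to coding transcripts after their values were seen. Values per library are given for the 2 highest and 2 lowest genes of each step and for those of the 50 genes that are in pairs. They are not given for Impdh1, Ctps2, Tk2, Dck and Tyms, which are in pairs but outside the 50. Of the other lists the 3 highest and 2 lowest are named. Pairs were compared on log2(TPM + 0.1), and called where the 95% interval did not span 0 and the libraries shared the sign. Errors of TPM that are particular to a gene are not in that spread. Replicate ratios used counts with a prior count of 2, scaled with edgeR 4.0.16 (TMM) or DESeq2 1.42.0 (size factors) from genes averaging 10 counts or more, rounded to whole numbers. No test between conditions was possible with 1 group. Only the replicate ratios and the pair intervals were checked on simulated data. For the intervals the simulated spread depended on level alone, so that check cannot cover a spread particular to a gene. Alternatives were other thresholds, pseudocounts, scalings, lengths and TPM estimates, each library alone and coding transcripts alone. Promoter sequences are from RefSeq (GRCm38.p6). Protein sequences were not used here.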

Additional observations from a re-analysis of the deposited data

How the results depend on the processing

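All 50 genes remained detected at 0.5 TPM and in each library alone, and 49 at 5 TPM. The number at 100 TPM was 28 in each library alone, 31 with TPM rescaled over genes and 23 with coding transcripts alone. The median level of the 50 genes was 114 to 117 TPM in single libraries, 113 with posterior mean TPM, 126 rescaled over genes and 84.3 with coding transcripts alone (Rfc1 at its typed part). By step, rescaling gave medians of 64.9 TPM for licensing, 143 for helicase, 91.1 for polymerases, 180 for clamp, 146 for ligation and 217 for nucleotide supply. Coding transcripts gave 52.7 for licensing, 104 for helicase, 71.7 for polymerases, 139 for clamp and 108 for ligation. Posterior mean TPM gave 128 for helicase, 81.6 for polymerases and 195 for nucleotide supply. The median replicate difference was 0.162 with spike-in scaling, since that scaling shifts all genes. The number of pairs beyond the spread was 40 in the 5 planned settings that used both libraries, 39 in each library alone, and 35 of 39 with coding transcripts alone. That last setting, which leaves out transcripts not typed as coding, reversed Pold1 over Pold2 (-0.32) and Tyms over Tk1 (-1.25). With it Gins2 over Gins3 (-0.01) and Tk1 over Dck (-0.13) were no longer beyond their intervals, and their sign changed. Cdt1 over Cdc6 (0.17), Rpa3 over Rpa1 (0.65) and Rpa1 over Rpa2 (-0.36) were then beyond theirs. Pole over Pole2 (0.22) was no longer called, since the libraries disagreed on its sign.

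The ratio of highest to lowest subunit per kilobase of the longest transcript was 1.58 for MCM2 to MCM7, 4.36 for GINS, 4.76 for polymerase alpha, 1.46 for delta, 1.06 for epsilon (Pole2 above Pole), 4.64 for RFC, 2.11 for RPA and 160 for ribonucleotide reductase. With coding transcripts it was 5.16 for ORC, 1.83 for MCM2 to MCM7, 4.56 for GINS, 5.32 for polymerase alpha, 1.48 for delta, 1.17 for epsilon and 1.57 for RPA, and no value was given for RFC. Posterior mean TPM gave 4.74 for ORC, 1.57 for polymerase delta and 88.2 for ribonucleotide reductase. Depth limits Rrm2b most, at 380 counts in replicate 2. No paired analysis was possible because the series holds 1 group. The search of protein sequences for a PCNA-binding motif was not run.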
